A study of Mus musculus with 18 samples.

Results

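The 9 genes described here are Slc38a2, Atf4, Ddit3, Ddit4, Asns, Trib3, Chac1, Sesn2 and Slc7a11, genes of the cellular response to amino acid shortage and its transcription factor ATF4. They were taken by symbol from a deposited table of 21638 mouse genes, and all 9 were in it. Slc38a2, the leading gene, was chosen by its measured level in the libraries labelled Hdac2 ECKO relative to the other ipsilateral libraries after occlusion, so that difference is a description and carries no test. RNA came from cortical endothelial cells of adult mice, sorted for CD31 and against CD41 and CD45. The 18 libraries formed 6 groups of 3. Wild-type (WT) mice with a sham operation and WT mice after middle cerebral artery occlusion (MCAO), a surgical model of ischaemic stroke, each gave an ipsilateral group from the side of the occlusion and a contralateral group from the other side. The other 2 groups were ipsilateral libraries of MCAO mice of the genotypes Hdac2 ECKO and Ezh2 ECKO, in which Hdac2lox/lox or Ezh2lox/lox alleles were combined with Cdh5CreERT2, a tamoxifen-activated Cre driven by the endothelial Cdh5 promoter. All 18 libraries, the WT controls included, were labelled with tamoxifen at 75 mg per kg, and the series text places 5 doses on days 0 to 4 for the deletion lines. Harvest was on day 7 of stroke. The labelled controls were WT, so floxed mice without Cre and Cre mice without floxed alleles are not among the groups. The labels do not say whether replicates came from separate mice or whether both sides came from the same mouse, so p-values measure the spread between these libraries only.

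When amino acids run short, uncharged transfer RNA activates the kinase GCN2, which phosphorylates the translation factor eIF2alpha. General translation slows, while translation of Atf4 messenger RNA increases. The same step is reached from other stresses, among them unfolded protein in the endoplasmic reticulum (ER) through PERK, and haem deficiency through HRI, so the arm is known as the integrated stress response. ATF4 protein, paired with C/EBP family partners, induces genes for amino acid uptake and synthesis, and later genes that dampen the response or favour cell death. Because ATF4 is controlled largely at translation, its messenger RNA level is an incomplete measure of its activity. In brain endothelium, which carries amino acids across the blood-brain barrier, these transporters also serve the tissue behind the vessel wall.

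The composite DNA element that ATF4 binds with C/EBP partners has the core TGATGNAA, and the windows below are shown because they hold it in member genes. RefSeq promoters (GRCm38.p6, 250 bases before to 50 bases after the start of a gene) were available for 9 of 9 members and were searched on both strands. The core was found in 4 of 9 members, and in 4.06% of the 27025 promoters of the same length. The stretches are written 5′ to 3′ in the direction of the gene, with the match in capitals. The match begins 23 bases before the RefSeq start of Asns (chr6:7693214-7693243, minus strand; the gene's bounds in the deposited table reach further upstream and include it), 193 bases before that of Chac1 (chr2:119351038-119351067, plus strand), and 66 and 47 bases before that of Slc7a11 (chr3:50443642-50443690, minus strand).
Asns: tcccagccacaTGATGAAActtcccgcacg
Chac1: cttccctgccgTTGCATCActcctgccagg
Slc7a11: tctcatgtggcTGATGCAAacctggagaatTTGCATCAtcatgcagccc
Chac1 and the downstream Slc7a11 match carry the core on the opposite strand. Trib3 held a match that begins 14 bases after its RefSeq start. That match lies outside the gene's bounds in the deposited table, on the upstream side. The windows of Slc38a2, Atf4, Ddit3, Ddit4 and Sesn2 held no match to these letters, which says nothing about elements elsewhere in those genes.

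Total counts ran from 25791401 to 57576255 per library. Levels are given as CPM, the counts of a gene per 1e6 counts of the library's scaled total, as mean ± SD over 3 libraries unless single libraries are named. Endothelial markers summed to between 12489 and 27699 CPM in the 18 libraries, against at most 9.17 CPM for 7 neuronal markers, 23.7 CPM for 9 microglia and macrophage markers, 89.6 CPM for 8 platelet and leukocyte markers, 92.2 CPM for 7 astrocyte markers, 188 CPM for 9 oligodendrocyte lineage markers and 198 CPM for 9 pericyte and smooth muscle markers. Red cell markers, mostly globins, were far above these, at 19225 to 297898 CPM in 5 groups and 71.0 to 671 CPM in Ezh2 ECKO. Counts on 1466 olfactory and vomeronasal receptor genes, genes not known to be active in endothelium, ranged from 152 CPM to 1889 CPM in MCAO contralateral replicate 1 and 2083 CPM in Ezh2 ECKO replicate 2, and are used below as a measure of background. Unlike the other levels, this background is per 1e6 counts of the library's unscaled total. The targeted genes were not shown to be lower under their own labels. Hdac2 was at 76.8 ± 16.8 CPM under the Hdac2 ECKO label, against 82.9 ± 14.0 CPM in MCAO ipsilateral (log2 difference −0.11 ± 0.32 SE, adjusted p = 0.925), and Ezh2 was at 13.4 ± 5.76 CPM under the Ezh2 ECKO label, against 6.44 ± 1.77 CPM (1.05 ± 0.86, adjusted p = 0.485). These are counts over the whole gene, so exons between lox sites were not seen separately, and both groups are called by their label.

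The members spanned a wide range of levels. Compared per length, as CPM per kilobase averaged over the 18 libraries, Slc38a2 stood at 45.9, Atf4 at 40.4 and Ddit3 at 34.0. Ddit4 followed at 7.34, Asns at 5.42 and Trib3 at 3.59, and Chac1 (0.593), Slc7a11 (0.376) and Sesn2 (0.172) were low. All 9 members passed the filter of at least 10 counts in at least 3 libraries, as did 17094 genes in all. A count of 10 was reached in all 18 libraries by 7 members, in 15 libraries by Chac1 and in 13 by Sesn2, so the last 2 are measured with the least precision. The plot of member levels by library shows that Slc38a2 set the Hdac2 ECKO libraries apart and that the other 8 members did not.

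**Figure D1:**
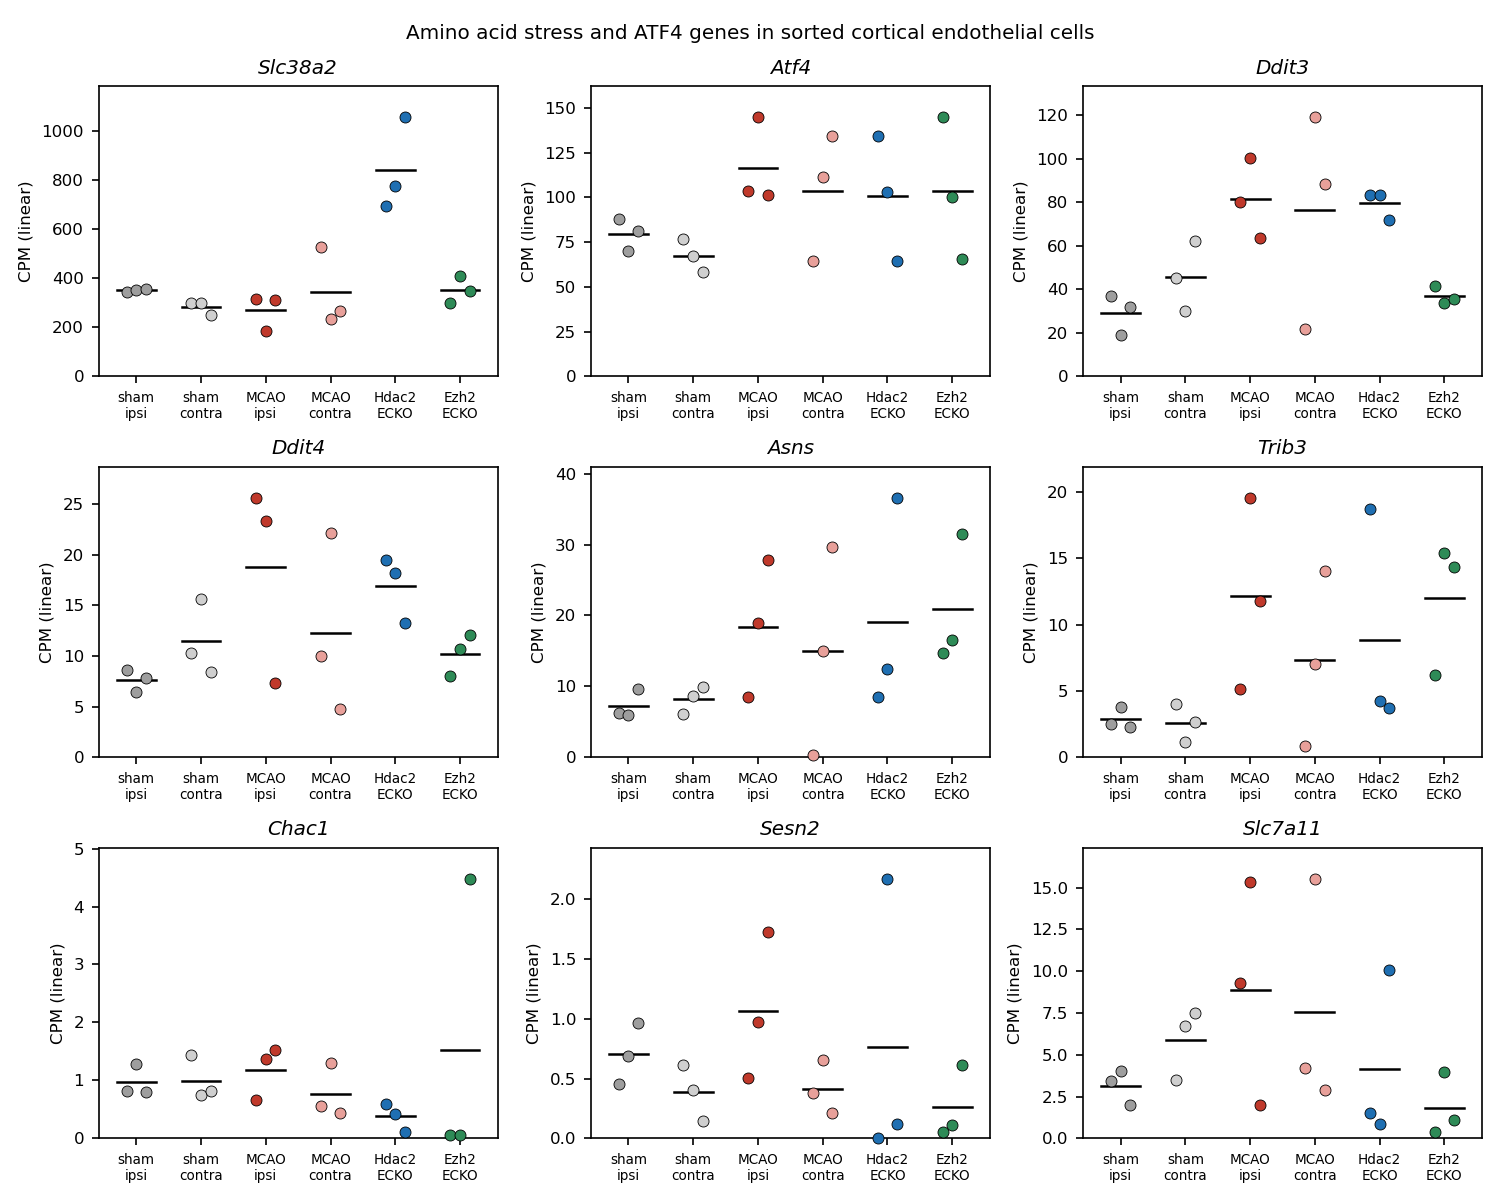
Level of each of the 9 genes in CPM on a linear axis, with 1 point per library (replicates 1, 2 and 3 from left to right) and a bar at the mean of 3 libraries, by group; Hdac2 ECKO and Ezh2 ECKO are MCAO ipsilateral libraries of those labels. The 3 Hdac2 ECKO points of Slc38a2 (693 to 1055 CPM) lie above all 15 other libraries, and the Ddit3 points of sham ipsilateral and Ezh2 ECKO lie below those of MCAO ipsilateral.

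Slc38a2 encodes SNAT2, a sodium-coupled carrier of small neutral amino acids that is made in larger amounts when cells lack amino acids or face hyperosmotic stress. Its gene lies on chromosome 15 at 96687392 to 96699730 (GRCm38, minus strand). In the 3 libraries labelled Hdac2 ECKO it reached 693, 776 and 1055 CPM. In MCAO ipsilateral it was at 314, 183 and 313 CPM, and in Ezh2 ECKO at 297, 410 and 348 CPM. The 3 Hdac2 ECKO libraries were thus the highest of the 18 (in bulk RNA, a change in which endothelial cells were sampled and a change in RNA per cell cannot be told apart), and the highest of the other 15 was MCAO contralateral replicate 1 at 528 CPM. The group mean was 841 ± 190 CPM in Hdac2 ECKO, which was 3.12-fold that of MCAO ipsilateral (log2 difference 1.64 ± 0.33 SE) and 2.39-fold that of Ezh2 ECKO (1.26 ± 0.33).

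Below Hdac2 ECKO the other 5 group means of Slc38a2 lay close together. They were 352 ± 56.8 CPM in Ezh2 ECKO, 350 ± 4.89 in sham ipsilateral, 342 ± 162 in MCAO contralateral, 281 ± 27.8 in sham contralateral and 270 ± 75.3 in MCAO ipsilateral. Sham ipsilateral libraries were at 345, 350 and 354 CPM, sham contralateral at 298, 296 and 249 CPM, and MCAO contralateral at 528, 232 and 266 CPM. Neighbours in this order differed by less than their spread, since the Ezh2 ECKO, sham ipsilateral and MCAO contralateral ranges overlapped, as did those of MCAO contralateral with both sham contralateral and MCAO ipsilateral. The first step, from Hdac2 ECKO to Ezh2 ECKO, was the exception among neighbours.

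The level of Slc38a2 moved with the receptor background inside groups. Across the 18 libraries the log2 level of Slc38a2 and log2 background had Pearson r = 0.44 and Spearman rho = 0.68, and r = 0.86 once group means were removed, as a description over libraries that share depth and scaling. In 3 of 6 groups the library with the most background also had the most Slc38a2. These were MCAO contralateral replicate 1, Hdac2 ECKO replicate 3 and Ezh2 ECKO replicate 2. The Hdac2 ECKO libraries had 198, 325 and 639 CPM of background, inside the range of the other groups, against 154 to 296 CPM in MCAO ipsilateral. The log2 difference from MCAO ipsilateral was 1.66 without the 2 libraries of highest background. Neither of these is in that comparison, so the value does not bear on background. With each compared library left out in turn the log2 difference ran from 1.41 to 1.76, as a description only, since this contrast chose the gene. Globin genes took 19.9%, 19.5% and 5.41% of the counts in Hdac2 ECKO replicates 1, 2 and 3, the first 2 being the highest shares of the 18 libraries, and replicate 3 had the most Slc38a2; the part of globin in this result was not tested. Ddit3 went the other way: the library with the most background had the least Ddit3 in 6 of 6 groups, with r = −0.71 and rho = −0.80 (−0.82 without group means). Atf4 was lowest there in 4 of 6 groups (r = −0.50). Their part in the results was not tested, beyond the values without those 2 libraries.

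**Figure D2:**
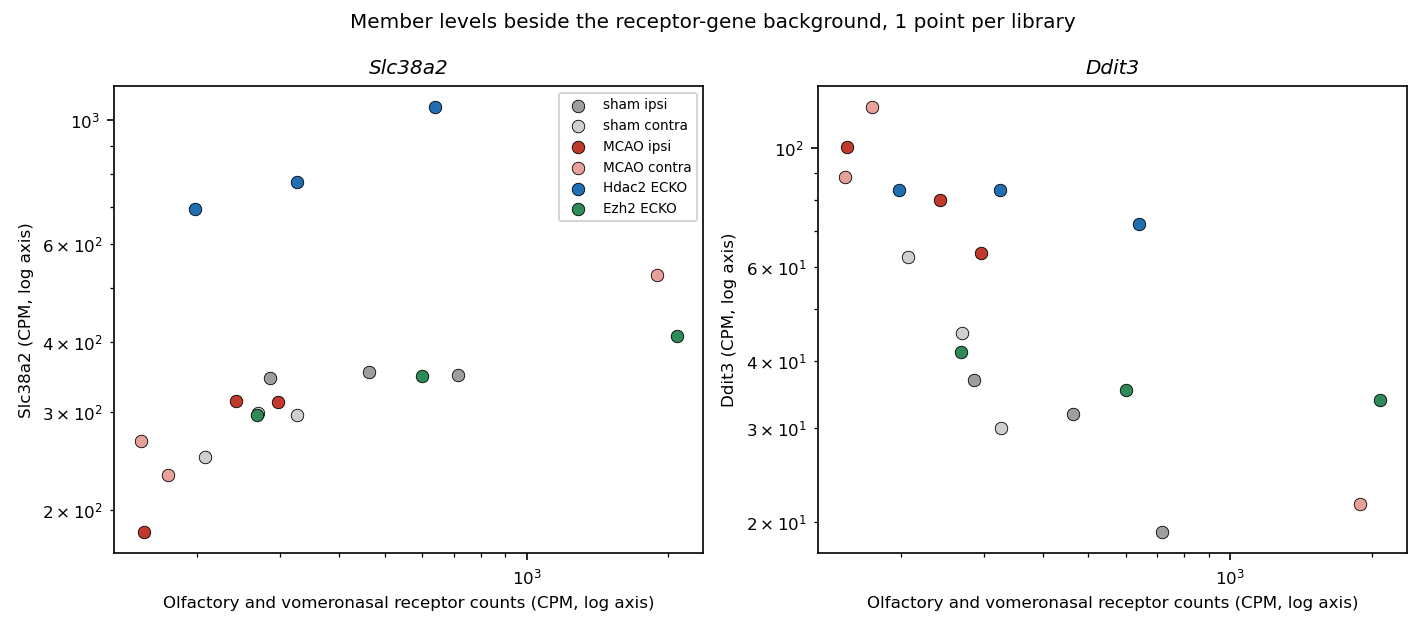
Level of Slc38a2 (left) and Ddit3 (right) in CPM against the summed CPM, on the unscaled library total, of 1466 olfactory and vomeronasal receptor genes, both on log axes, with 1 point per library coloured by group. The Hdac2 ECKO points of Slc38a2 (693 to 1055 CPM) lie above the others at like background, and Ddit3 is lowest in each group at the highest background.

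Atf4 (chromosome 15, 80255184 to 80257541, plus strand) encodes the transcription factor itself. MCAO ipsilateral libraries had 103, 145 and 101 CPM and sham ipsilateral libraries 87.8, 69.9 and 81.1 CPM, with no overlap. MCAO contralateral libraries had 64.2, 111 and 134 CPM and sham contralateral libraries 76.5, 67.5 and 58.4 CPM, and these overlapped through MCAO contralateral replicate 1. Hdac2 ECKO libraries, at 134, 103 and 64.2 CPM, and Ezh2 ECKO libraries, at 145, 100 and 65.8 CPM, spanned nearly the range of all WT libraries.

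Ddit3 (chromosome 10, 127290774 to 127296288, plus strand) encodes CHOP, a transcription factor induced by ATF4 that is known for promoting cell death under lasting stress. It was at 80.1, 101 and 63.5 CPM in MCAO ipsilateral and at 36.8, 19.1 and 31.8 CPM in sham ipsilateral, without overlap. On the contralateral side MCAO libraries had 21.6, 119 and 88.3 CPM, both the lowest and the highest of the 6 libraries of that side, and sham libraries had 45.2, 30.0 and 62.4 CPM. Hdac2 ECKO libraries had 83.6, 83.5 and 72.1 CPM, within the MCAO ipsilateral range, and Ezh2 ECKO libraries had 41.5, 33.8 and 35.4 CPM, below it. Ddit3 overlaps Gm4189 and Mars in GENCODE M21, and the strand setting of the counting was not given in the sources used here, so reads of these genes cannot be told apart from its own.

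Asns and Slc7a11 carry out the supply side of the response. Asns (chromosome 6, 7675169 to 7693254, minus strand) encodes asparagine synthetase. It was at 6.27, 6.03 and 9.61 CPM in sham ipsilateral and 6.16, 8.61 and 9.89 CPM in sham contralateral. After occlusion the libraries scattered, at 8.48, 19.0 and 27.8 CPM ipsilateral and 0.314, 14.9 and 29.6 CPM contralateral, where the lowest was replicate 1 with 10 counts. Hdac2 ECKO libraries had 8.46, 12.4 and 36.5 CPM, and Ezh2 ECKO libraries 14.6, 16.5 and 31.5 CPM, all 3 above the 6 sham libraries. Slc7a11 (chromosome 3, 49892526 to 50443614, minus strand) encodes xCT, which imports cystine in exchange for glutamate. It ranged from 1.98 to 7.49 CPM in the 6 sham libraries and from 2.01 to 15.5 CPM in the 6 WT MCAO libraries. Ezh2 ECKO libraries had 0.377, 3.95 and 1.09 CPM. In Hdac2 ECKO it was at 1.49, 0.843 and 10.1 CPM, a spread larger than its mean. Slc7a11 overlaps 5 predicted genes in that annotation.

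Trib3 and Chac1 belong to the feedback end of the response. Trib3 (chromosome 2, 152337422 to 152344032, minus strand) encodes a pseudokinase that restrains ATF4 and CHOP. It was at 2.52, 3.77 and 2.30 CPM in sham ipsilateral and at 5.15, 19.6 and 11.8 CPM in MCAO ipsilateral, without overlap. Sham contralateral libraries had 3.99, 1.14 and 2.69 CPM and MCAO contralateral libraries 0.879, 7.01 and 14.1 CPM, so replicate 1 again lay below the sham libraries and the other 2 above. Ezh2 ECKO libraries had 6.20, 15.4 and 14.4 CPM, and Hdac2 ECKO libraries 18.7, 4.21 and 3.70 CPM. Chac1 (chromosome 2, 119351229 to 119354381, plus strand) encodes an enzyme that degrades glutathione. In the 12 WT libraries it stayed between 0.428 and 1.53 CPM. Hdac2 ECKO libraries had 0.595, 0.421 and 0.118 CPM, and Ezh2 ECKO libraries had 2, 2 and 160 counts, or 0.0539, 0.0569 and 4.47 CPM, so its Ezh2 ECKO mean rests on replicate 3.

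Ddit4 and Sesn2 lower the activity of mTORC1, the kinase complex that senses amino acids. Ddit4 (chromosome 10, 59949669 to 59951834, minus strand), also known as REDD1, responds to hypoxia and glucocorticoids as well as to ATF4. It was at 8.58, 6.48 and 7.81 CPM in sham ipsilateral and at 25.6, 23.3 and 7.37 CPM in MCAO ipsilateral, where replicate 3 lay within the sham range. Sham contralateral libraries had 10.3, 15.6 and 8.45 CPM, MCAO contralateral libraries 9.98, 22.1 and 4.80 CPM, Hdac2 ECKO libraries 19.4, 18.2 and 13.2 CPM and Ezh2 ECKO libraries 7.98, 10.7 and 12.0 CPM. Sesn2 (chromosome 4, 132492032 to 132510501, minus strand) encodes Sestrin2, a leucine sensor. Its counts were at most 72 in any library, and its levels ran from 0 counts in Hdac2 ECKO replicate 1 to 2.17 CPM in replicate 2 of the same group. A floor of 3 counts corresponded to 0.0619 to 0.101 CPM, depending on the library, for counting error only.

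The members did not vary as 1 block. Over the 18 libraries, log2 levels of Atf4 correlated with those of Trib3 (r = 0.67, rho = 0.67) and Ddit3 (0.57, 0.62), Asns with Trib3 (0.66, 0.53), and Chac1 with Sesn2 (0.57, 0.61). Slc38a2 was not part of that pattern, with r = −0.22 to Atf4, −0.06 to Ddit3, −0.10 to Asns and −0.16 to Trib3. These are descriptions over libraries that share groups, depth and background, and with group means removed Slc38a2 had r = −0.72 with Atf4 and −0.80 with Ddit3.

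The first question was whether occlusion changed these genes on the injured side. In MCAO ipsilateral against sham ipsilateral, Trib3 was 4.25-fold higher (log2 difference 2.09 ± 0.87 SE), Ddit3 2.78-fold (1.48 ± 0.46) and Ddit4 2.46-fold (1.30 ± 0.58). Asns (1.34 ± 0.86), Slc7a11 (1.5 ± 1.00) and Atf4 (0.55 ± 0.36) were also on the higher side, and Slc38a2 on the lower (−0.37 ± 0.32). None of the 9 passed an adjusted p of 0.05 by edgeR, and neither did any of the 17094 genes (0% called). Ddit3 came nearest among members (adjusted p = 0.509), followed by Trib3 (adjusted p = 0.645) and Ddit4 (adjusted p = 0.676). With 1 library left out the Trib3 difference ran from 1.56 (without MCAO ipsilateral replicate 2) to 2.45 (without replicate 1). At an unadjusted p under 0.05, these 3 of 9 members were higher, against 4.26% of all genes higher. Of the members, 8 of 9 had a log2 difference above 0, against 45.9% of all genes, and their median was 1.30 against −0.09 for all genes. Groups did not overlap for 3 members that were higher (Atf4, Ddit3 and Trib3; 13.3% of all genes) and 1 that was lower (Slc38a2; 14.4%). Receptor background was 285, 716 and 463 CPM in sham ipsilateral and 242, 154 and 296 CPM in MCAO ipsilateral. Its part in these differences was not tested, and neither of the 2 libraries of highest background is in this comparison. DESeq2 called 71 genes in this comparison and none of the members. The MCAO ipsilateral libraries also entered the contrast that chose Slc38a2, so its low value here is not independent of that choice.

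On the contralateral side no member passed either (0% of all genes called), with adjusted p between 0.920 and 0.995, and at an unadjusted p under 0.05 the count was 0 of 9, against 4.41% of all genes. Groups overlapped for all 9 members, while they did not for 9.65% of all genes. Trib3 (1.49 ± 0.85), Asns (0.86 ± 0.85), Ddit3 (0.74 ± 0.45) and Atf4 (0.62 ± 0.36) had positive log2 differences, Slc38a2 had 0.28 ± 0.32, and 8 of 9 members were above 0, against 59.3% of all genes. The median was 0.35 against 0.17 for all genes. MCAO contralateral replicate 1, the library of high background in that group, had the group's lowest Atf4, Ddit3, Asns and Trib3 and its highest Slc38a2. Without it and Ezh2 ECKO replicate 2, which leaves 2 MCAO contralateral libraries, Trib3 stood at 2.01 ± 0.78, Asns at 1.43 ± 0.61, Ddit3 at 1.17 ± 0.34 and Atf4 at 0.86 ± 0.34, while Slc38a2 turned to −0.18 ± 0.28. No member was called then either.

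Over both sides together, a fit that may count a mouse more than once, Ddit3 was at 78.9 CPM in the 6 WT MCAO libraries and 37.6 CPM in the 6 sham libraries (1.11 ± 0.32, adjusted p = 0.192). Trib3 was at 9.74 and 2.73 CPM (1.79 ± 0.61, adjusted p = 0.285) and Atf4 at 110 and 73.5 CPM (0.58 ± 0.25, adjusted p = 0.475). Slc38a2 did not separate the groups, at 306 and 316 CPM (−0.05 ± 0.23). No member was called, against 0.152% of all genes called, and at an unadjusted p under 0.05 3 of 9 were higher, against 5.52% of all genes. This count depended on 1 library. Without MCAO contralateral replicate 1, Ddit3 was called (1.35 ± 0.24, adjusted p = 0.0094). Without the 2 libraries of highest background, an alternative chosen after the data were seen, Ddit3 (1.31 ± 0.23, adjusted p = 0.00662) and Trib3 (2.03 ± 0.53, adjusted p = 0.0429) were called. DESeq2 called Ddit3 on all libraries (1.11, adjusted p = 0.026). More of all genes were called in these fits too, against 26 in the main fit. There were 266 without MCAO contralateral replicate 1, and 248 higher and 86 lower with DESeq2. The count also rose without the 2 libraries of highest background.

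The occlusion differences of the 2 sides were not shown to differ: the interaction had adjusted p between 0.941 and 0.991 for the 9 members, and 0 of 17094 genes were called (3.38% at an unadjusted p under 0.05). Between the sides of the same kind of mouse, 0 members and 0% of genes were called, both after occlusion and in sham, and 0 members had an unadjusted p under 0.05 (3.08% and 1.85% of genes). In sham, Slc38a2 was higher ipsilaterally in all 3 libraries (0.31 ± 0.32), without overlap, as were 8.44% of all genes.

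**Figure D3:**
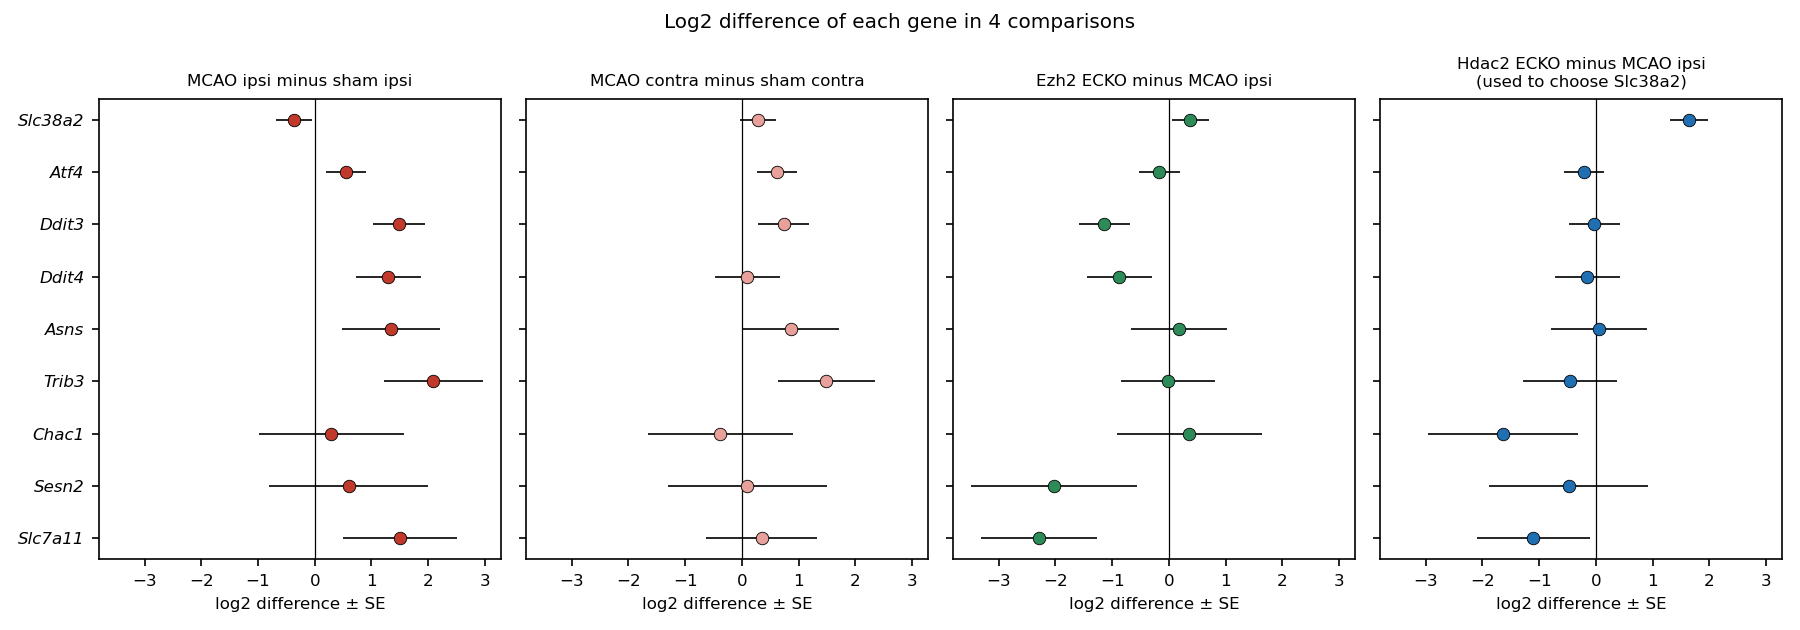
Log2 difference of each of the 9 genes, with bars for the standard error (SE), in 4 comparisons named above the panels; ipsi and contra are the sides, and all Hdac2 ECKO and Ezh2 ECKO libraries are MCAO ipsilateral. After occlusion 8 of 9 points lie above 0 on both sides, and under the Hdac2 label, the contrast that chose it, Slc38a2 stands alone at 1.64.

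In the libraries labelled Ezh2 ECKO, compared with MCAO ipsilateral, Ddit3 was at 36.9 ± 4.08 against 81.4 ± 18.6 CPM, without overlap (−1.14 ± 0.45, adjusted p = 0.177; 15.3% of all genes were lower without overlap). Slc7a11 was at 1.81 ± 1.89 against 8.87 ± 6.66 CPM (−2.29 ± 1.03, adjusted p = 0.226), Sesn2 at 0.261 ± 0.308 against 1.06 ± 0.616 CPM (−2.02 ± 1.46, adjusted p = 0.431) and Ddit4 at 10.2 ± 2.06 against 18.8 ± 9.93 CPM (−0.87 ± 0.57). With 1 library left out the Slc7a11 difference ran from −3.61 (without Ezh2 ECKO replicate 2) to −1.64 (without MCAO ipsilateral replicate 2), and that of Sesn2 from −3.63 (without Ezh2 ECKO replicate 3) to −1.52. Atf4 (−0.17 ± 0.36), Trib3 (−0.02 ± 0.83) and Asns (0.18 ± 0.85) had estimates near 0, with errors that leave room for a change of either sign. Slc38a2 was at 352 against 270 CPM (0.38 ± 0.32, adjusted p = 0.498). No member was called, against 1.46% of all genes, and 2 of 9 (Ddit3 and Slc7a11) were lower at an unadjusted p under 0.05, against 10.7% of all genes. Of the members, 3 of 9 were above 0, against 55.4% of genes, and the median was −0.17 against 0.17. Scaling by RLE raised the median of all genes by 0.19 and put 5 of 9 members above 0, Atf4 and Trib3 being the ones that changed sign. Receptor background was 268, 2083 and 600 CPM in Ezh2 ECKO replicates 1, 2 and 3, against 242, 154 and 296 CPM in MCAO ipsilateral. Ddit3 fell as this background rose inside groups (r = −0.82 without group means). With 1 library left out, Ezh2 ECKO replicate 2 among them, the Ddit3 difference stayed between −1.33 and −0.96. Ezh2 ECKO libraries also held at most 0.0653% of counts on globin genes, against 2.44% to 19.9% in the other groups. Beyond these values, the part of background or globin in the result was not tested.

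In the libraries labelled Hdac2 ECKO, the high value of Slc38a2 was not shared by the other 8 members. Against MCAO ipsilateral, log2 differences were 0.05 ± 0.85 for Asns, −0.03 ± 0.45 for Ddit3, −0.15 ± 0.57 for Ddit4 and −0.21 ± 0.36 for Atf4. They were −0.45 ± 0.83 for Trib3, −0.48 ± 1.4 for Sesn2, −1.10 ± 0.99 for Slc7a11 and −1.64 ± 1.32 for Chac1. These errors leave room for a change of either sign. With Slc38a2, 2 of 9 members were above 0, against 54.8% of genes. Single libraries decided several of these values: with 1 left out, Sesn2 ran from −4.14 (without Hdac2 ECKO replicate 2) to 0.10, Slc7a11 from −2.98 (without Hdac2 ECKO replicate 3) to −0.45, and Trib3 from −1.66 (without Hdac2 ECKO replicate 1) to 0.07. Groups did not overlap for Slc38a2, which was higher (9.54% of all genes), and for Chac1, which was lower (10.3%). Over all genes 0.0117% were called here, 2 genes (Nr4a1 and Nr4a2); no test is given for members, since the rule that names the members used this contrast for Slc38a2. Set beside Ezh2 ECKO, the Hdac2 ECKO libraries were higher without overlap in Slc38a2 (1.26), Ddit3 (1.11) and Ddit4 (0.73), and 6.87% of all genes were higher in that way. The 2 deletion labels share the MCAO ipsilateral libraries as controls.

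The wider pathway was described with 10 gene lists, chosen like the members with earlier results of these data known, of which the medians are set beside those of all genes. On the injured side after occlusion no listed gene was called. Genes for serine, one-carbon and amino acid synthesis had a median log2 difference of 1.01, with 14 of 16 above 0, and ER chaperones with the ATF6 and XBP1 arms a median of 0.81, with 15 of 19 above 0. Other ATF4 targets had 0.62 (12 of 14), the tRNA synthetases, which load amino acids onto transfer RNA, 0.42 (18 of 20), and the eIF2alpha kinases and translation factors 0.30 (10 of 15). Glutathione and NRF2 targets had 0.50 (9 of 12), and glucocorticoid and hypoxia genes, a list that shares inducers with Ddit4, 1.02 (13 of 17). Amino acid transporters other than the members (0.22, 11 of 19), mTORC1 with its sensors (−0.20, 9 of 21) and immediate early genes (−0.17, 9 of 21) lay nearer the median of all genes, −0.09.

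The ER chaperone Hspa5 (BiP) was at 310 ± 58.3 CPM in MCAO ipsilateral and 173 ± 18.1 in sham ipsilateral (0.84 ± 0.31, adjusted p = 0.621). Eif2s1, the alpha subunit of eIF2, was at 182 ± 56.1 and 92.6 ± 19.97 CPM (0.97 ± 0.39, adjusted p = 0.645). Herpud1, a factor of ER-associated degradation, was at 129 ± 70.2 and 61.2 ± 12.7 CPM (1.07 ± 0.37, adjusted p = 0.579). The taurine transporter gene Slc6a6 ran the opposite way, at 775 ± 276 and 1596 ± 139 CPM (−1.04 ± 0.31, adjusted p = 0.509). Eif2ak4, which encodes GCN2, was at 39.1 ± 8.47 and 42.2 ± 9.95 CPM (−0.11 ± 0.41).

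Over both sides 1 of the 170 different genes tested in the 10 lists was called (0.588%, against 0.152% of all genes, 21 higher and 5 lower). Cebpd, a C/EBP family transcription factor, rose from 28.8 ± 7.04 CPM in the 6 sham libraries to 82.1 ± 25.5 CPM in the 6 MCAO libraries (1.52 ± 0.29, adjusted p = 0.0314), and its lowest MCAO library (44.6 CPM) lay above its highest sham library (38.5 CPM). The share of all genes that separated in this way over both sides is not given here. The call was kept in 3 of 12 fits with 1 library left out, with log2 differences from 1.41 to 1.69 and adjusted p from 0.0088 to 0.171, and it was lost without a filter (adjusted p = 0.0545).

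Under the Ezh2 label 6 of the 170 listed genes were called (3.53%, against 1.46% of all genes), all 6 lower, as were 211 of the 250 genes called in all (DESeq2 called 757 higher and 860 lower). Castor1, an arginine sensor upstream of mTORC1, was at 5.55, 13.5 and 0.112 CPM in Ezh2 ECKO and at 94.4, 185 and 32.6 CPM in MCAO ipsilateral (−4.02 ± 0.93, adjusted p = 0.0379). Slc3a2 encodes the heavy chain that xCT, the product of Slc7a11, and the large neutral amino acid carriers need to reach the membrane. It was at 179, 122 and 223 CPM in Ezh2 ECKO and at 529, 719 and 415 CPM in MCAO ipsilateral (−1.67 ± 0.36, adjusted p = 0.0324). Xbp1, a transcription factor of the ER stress response, was at 63.6, 40.5 and 82.7 CPM against 245, 375 and 138 CPM (−2.02 ± 0.45, adjusted p = 0.0356). The others were the metallothionein gene Mt2 (−2.25 ± 0.49, adjusted p = 0.0337), Nfkbia, which encodes an inhibitor of NF-kB (−1.68 ± 0.42, adjusted p = 0.0479), and the immediate early gene Ier3 (−1.76 ± 0.44, adjusted p = 0.048). In the 6 fits with 1 library left out, Castor1, Slc3a2, Xbp1, Mt2 and Nfkbia were called in 1 of 6 each, without MCAO ipsilateral replicate 3, and Ier3 in 2 of 6. The Castor1 difference ran from −5.24 (without Ezh2 ECKO replicate 2) to −3.31 (without MCAO ipsilateral replicate 2), and Nfkbia was also lost without a filter (adjusted p = 0.0518). The highest adjusted p of each, from 0.171 to 0.257, came without MCAO ipsilateral replicate 2. Against the same MCAO ipsilateral libraries, Hdac2 ECKO had log2 differences of −2.42 in Castor1, −1.25 in Slc3a2, −1.17 in Xbp1 and −1.02 in Mt2. Nfkbia was at −0.20 there, and Ier3 at 286, 347 and 192 CPM against 351, 276 and 173 CPM. Sham ipsilateral means were 25.0 CPM for Castor1, 211 for Slc3a2, 79.9 for Xbp1, 115 for Mt2 and 515 for Nfkbia. Under the Ezh2 label the list medians were −1.38 for glucocorticoid and hypoxia genes (4 of 17 above 0), −1.03 for other ATF4 targets (1 of 14), −0.53 for eIF2alpha kinases and translation factors (6 of 15) and −0.46 for ER chaperones (6 of 19), against 0.17 for all genes. They were −0.41 for synthesis genes (5 of 16), −0.32 for other amino acid transporters (8 of 19), −0.30 for tRNA synthetases (7 of 20), −0.25 for mTORC1 with its sensors (8 of 21) and −0.25 for glutathione genes (5 of 12). The immediate early genes lay above the median of all genes, at 0.32 (11 of 21), and at an unadjusted p under 0.05, 7 were higher and 3 lower.

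Under the Hdac2 label the lists are given as description only. Serine and amino acid synthesis genes had a median of −1.13 (3 of 16 above 0), tRNA synthetases −0.62 (2 of 20), glutathione genes −0.48 (3 of 12), ER chaperones −0.47 (6 of 19) and other ATF4 targets −0.04 (7 of 14), against 0.11 for all genes. Other amino acid transporters had 0.01 (10 of 19), mTORC1 with its sensors 0 (10 of 21), glucocorticoid and hypoxia genes −0.20 (6 of 17) and eIF2alpha kinases and translation factors −0.35 (5 of 15). The immediate early genes, transcribed within minutes of a stimulus, had 1.05 (17 of 21), and their summed level was 6242, 4802 and 4419 CPM in the Hdac2 ECKO libraries and 2123 to 5010 CPM elsewhere. Slc38a2 and the immediate early sum had r = 0.54 over the 18 libraries and r = −0.40 with group means removed, and the part of the immediate early genes in the Slc38a2 level was not tested.

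**Figure D4:**
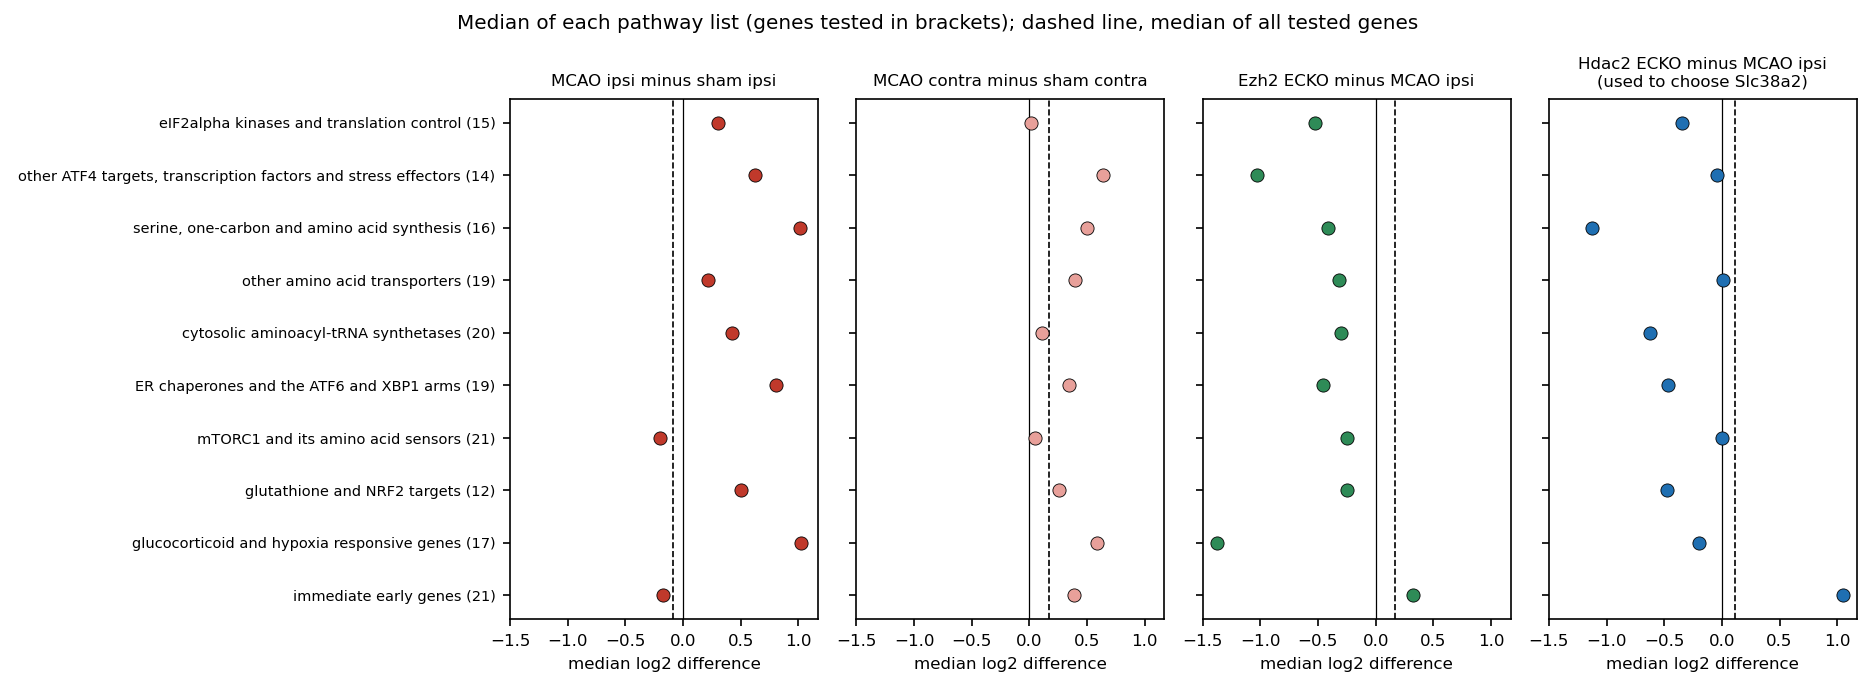
Median log2 difference of each of 10 gene lists in 4 comparisons, with the number of genes tested in brackets, a solid line at 0 and a dashed line at the median of all 17094 genes. Synthesis genes lie at 1.01 after occlusion on the injured side and at −1.13 under the Hdac2 label, and the immediate early genes, at 1.05 under that label, are the only list above the dashed line there.

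The genes whose pattern was most like that of Slc38a2, among the 7809 other genes that averaged 10 CPM or more, were ranked by Pearson r of log2 levels over the 18 libraries. Nr4a2, an orphan nuclear receptor of the immediate early class, came first (r = 0.924, rho = 0.878, and 0.798 without group means). It was at 328, 209 and 292 CPM in Hdac2 ECKO, 40.3, 26.3 and 47.9 CPM in MCAO ipsilateral and 74.3, 173 and 84.3 CPM in Ezh2 ECKO. As for Slc38a2, the 3 Hdac2 ECKO libraries were the highest of the 18. Slc38a2 was chosen by its level in these libraries and the ranking used them, so a high level there is built into the ranking. Nr4a1 (0.853, and 0.25 without group means), Csrnp2 (0.824, 0.395), Pcf11 (0.822, 0.605) and Tiparp (0.804, 0.436) followed. Once group means were removed Nr4a2 ranked 123 of the 7809 genes, so other genes were closer to Slc38a2 within groups, where Slc38a2 itself had r = 0.86 with the receptor background.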

How the data were processed

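The deposited table holds counts per gene in 18 libraries; its name calls them normalized, but they were whole numbers with unequal totals and 77.3% to 89.4% of counts from 1 to 20 were even, so they were treated as unscaled counts of both mates. A SMART-Seq PLUS kit was used, with paired reads, per the labels' protocols. The authors' tools included FastQC, cutadapt, STAR, featureCounts and DESeq2, with genome mm10, per the submitters' processing notes; order, versions, strand and annotation were not given in the sources used here. A gene length deposited by the authors (another unit, in bases) gave CPM per kilobase. Starts and ends of the 9 members matched GENCODE M21 on GRCm38.

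Groups were taken from sample titles. One edgeR 4.0.16 fit of 6 group means (R 4.3.3, limma 3.58.1, TMM scaling, genes with at least 10 counts in at least 3 libraries, quasi-likelihood F-test, Benjamini-Hochberg over 17094 genes) gave every log2 difference, with a call at an adjusted p under 0.05 and the SE as the difference divided by the square root of F. Correlations used log2 CPM with a prior count of 2. Members and lists were chosen with earlier results of these data known, so p-values are adjusted over all genes only. The text names all members, Hdac2 and Ezh2, the listed genes of highest mean level or called, and the 5 genes most like Slc38a2; not every gene of highest mean level is described. Alternatives were DESeq2 1.42.0, RLE scaling, no filter, halved counts, a replicate block, each library left out, and 2 added after the values were seen: leaving out the 2 libraries of highest background, and the interaction.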

Additional observations from a re-analysis of the deposited data

How the results depend on the processing

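No member was called in the ipsilateral, contralateral, side or Ezh2 comparisons under any of them. Over both sides the number of members called went from 0 to 1 with DESeq2, to 2 without the 2 libraries of highest background, and from 0 to 1 with single libraries left out.

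The number of all genes called depended strongly on the tool and the libraries. DESeq2 called 71, 26, 6, 6, 334 and 1617 genes (occlusion ipsilateral, contralateral, side after occlusion, side in sham, both sides, Ezh2 label) where edgeR called 0, 0, 0, 0, 26 and 250, and 239 and 647 for the Hdac2 label and for Hdac2 against Ezh2, where edgeR called 2 and 21. Without the 2 libraries of highest background the counts were 13, 1 and 498 for the occlusion comparisons and 1000, 62 and 115 for the labels. RLE gave 40 over both sides and 4 under the Hdac2 label; halved counts gave 435, 5 and 32 for the 3 label comparisons; no filter gave 2 ipsilaterally and 38 for Hdac2 against Ezh2. Leaving out 1 library gave 0 to 266 over both sides (highest without MCAO contralateral replicate 1), 5 to 298 under the Ezh2 label, 0 to 18 under the Hdac2 label and 9 to 73 between labels. RLE called 119 genes higher and 249 lower under the Ezh2 label, and DESeq2 757 and 860, against 39 and 211. RLE moved the median of all genes by 0.19 there, by 0.13 contralaterally, by −0.16 between sides after occlusion and by −0.11 between labels.

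Signs of some member differences changed. None of these was a call, and the cause was not tested. Not all were small: between labels the main fit had −2.01 for Chac1, 1.54 for Sesn2 and 1.19 for Slc7a11. Contralaterally, Ddit4 and Sesn2 were at −0.02 each without a filter and at 0 and −0.17 with the replicate block, and Slc38a2 was at −0.18 without the 2 libraries of highest background. Between sides after occlusion Slc38a2 was at 0.12 without them. Over both sides it was at 0.03 with RLE and 0.03 with DESeq2. Under the Ezh2 label Atf4 was at 0 with RLE and 0 with DESeq2, and Trib3 at 0.22 with RLE, 0.22 with DESeq2, 0.12 without a filter and 0.07 with halved counts. With 1 library left out the ranges that crossed 0 were, contralaterally, Slc38a2 −0.15 to 0.46, Ddit4 −0.67 to 0.49, Asns −0.11 to 1.46, Sesn2 −0.41 to 0.61 and Slc7a11 −0.77 to 0.74; for Slc38a2, −0.56 to 0.09 between sides after occlusion and −0.26 to 0.06 over both sides; and, under the Ezh2 label, Atf4 −0.49 to 0.04, Asns −0.26 to 0.57, Trib3 −0.38 to 0.50 and Chac1 −4.37 to 0.93. Under the Hdac2 label, with no test, they were Ddit3 −0.24 to 0.15, Ddit4 −0.59 to 0.14, Asns −0.85 to 0.42, Trib3 −1.66 to 0.07 and Sesn2 −4.14 to 0.10, and between labels Atf4 −0.36 to 0.28, Asns −1.02 to 0.27, Chac1 −2.61 to 2.68, Sesn2 −2.14 to 3.14 and Slc7a11 −0.66 to 2.46.

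The labels do not say whether same-numbered libraries share a mouse. Deviations from group means correlated at a median of −0.04 over 45 same-numbered pairs and 0.02 over 90 others. Most of these pairs join different kinds of mouse, so the medians cannot decide this. Between both sides of replicates 1, 2 and 3, r was 0.36, 0.35 and −0.12 in sham and 0.28, 0.36 and 0.04 after occlusion. Pairs of different number in those groups ran from −0.50 to 0.35 and from −0.36 to 0.21. With the replicate block 0 members were called, over both sides 4 genes, under the Ezh2 label 12 and between labels 9, and the 7 listed calls were lost (adjusted p from 0.0558 to 0.0809). Depth bears most on Chac1 and Sesn2, which had under 10 counts in some libraries and SEs of 0.90 or more in the occlusion comparisons.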
